A study of Mus musculus with 12 samples.

Results

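Seminal vesicles of adult male mice without estrogen receptor alpha were compared with those of wild-type males that had received the same vehicle injections. The comparison set the 3 aERKO_vehicle arrays against the 3 WT_vehicle arrays, 6 of the 12 arrays of the series, and took in every gene to which the platform annotation gave exactly 1 symbol. Of 30063 such genes, 20102 were measured above the median of the array on at least 3 of the 12 arrays and were tested. Both groups were C57BL/6 males whose seminal vesicles were collected at week 10. Both had been injected under the skin with corn oil on days 1 to 5 of life, the solvent given to the other 2 groups, WT_DES and aERKO_DES, together with 2 µg per pup per day of diethylstilbestrol (DES), a synthetic estrogen. The genotype label of the aERKO animals is estrogen receptor-alpha knockout. Which targeted allele they carried is not given in the sources used here, nor is whether each array of a group came from a different animal. The p-values therefore reflect the spread among the arrays alone, and part or all of that spread may be technical. The comparison asks how far the gland of an adult male differs without the receptor when no estrogen has been administered.

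Estrogen receptor alpha, the product of Esr1, is a nuclear receptor that binds estradiol and then acts on target genes, either by binding DNA at estrogen response elements or through other DNA-bound factors. In the male accessory glands it is best known in the stroma, whereas growth and secretion of the seminal vesicle depend mainly on androgens. Estrogen reaches these glands in males through aromatization of testosterone.

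Limma called 5 of the 20102 genes at a Benjamini-Hochberg adjusted p below 0.05, which is 0.0249% of those tested. Atp13a4 and Ptgds were higher in aERKO_vehicle, and Esr1, Timp1 and Ms4a5 were lower. They lie on 5 different chromosomes: Atp13a4 on 16, Ptgds on 2, Esr1 on 10, Ms4a5 on 19 and Timp1 on X. All 5 differed by at least 1.5-fold.

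The sequences before the starts of the 4 called genes other than the targeted one are shown because these are the genes whose transcripts differed with the receptor. Each is the 250 bases before a transcript start in RefSeq (GRCm38.p6), written 5′ to 3′ on the strand of the gene: Atp13a4 at chr16:29544865-29545114 (minus strand, the more upstream of its 2 starts), Ptgds at chr2:25469750-25469999 (minus), Timp1 at chrX:20869916-20870165 (plus) and Ms4a5 at chr19:11283814-11284063 (minus). Capitals mark the letters GGTCA or TGACC, the arm of an estrogen response element read on either strand.
Atp13a4: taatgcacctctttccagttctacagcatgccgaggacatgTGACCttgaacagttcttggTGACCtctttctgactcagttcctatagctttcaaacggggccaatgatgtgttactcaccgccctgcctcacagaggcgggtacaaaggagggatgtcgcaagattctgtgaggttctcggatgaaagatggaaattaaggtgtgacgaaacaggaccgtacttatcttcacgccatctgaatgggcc
Ptgds: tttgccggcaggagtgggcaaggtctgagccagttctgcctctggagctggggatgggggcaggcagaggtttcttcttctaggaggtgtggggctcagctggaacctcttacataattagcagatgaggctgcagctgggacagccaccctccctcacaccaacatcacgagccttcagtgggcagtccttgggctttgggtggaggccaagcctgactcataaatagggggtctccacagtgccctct
Timp1: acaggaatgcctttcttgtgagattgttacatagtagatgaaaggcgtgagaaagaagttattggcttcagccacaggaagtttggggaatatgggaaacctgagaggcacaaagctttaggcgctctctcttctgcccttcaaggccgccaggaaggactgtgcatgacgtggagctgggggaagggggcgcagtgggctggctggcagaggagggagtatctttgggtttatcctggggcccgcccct
Ms4a5: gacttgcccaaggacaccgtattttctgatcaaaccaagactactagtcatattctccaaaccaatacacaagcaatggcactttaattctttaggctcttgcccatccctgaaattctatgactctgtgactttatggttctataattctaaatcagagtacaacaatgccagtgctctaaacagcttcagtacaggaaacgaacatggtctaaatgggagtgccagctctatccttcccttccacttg

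Only the upstream start of Atp13a4 held such an arm within these windows, at 209 and 189 bases before the start. Over the 7 RefSeq promoter entries of the 5 called genes, each a window of 300 bases that also takes in 50 bases after the start, 2 held it. The second was 1 of the 2 Esr1 entries, where the match lies outside the 250 bases before the start. The same letters occur in 13299 of all 32851 promoter entries (40.5%), so such a match is common and describes letters, not a bound site. The full palindrome, GGTCA and TGACC 3 bases apart, was in none of the 7 entries and in 23 of all entries (0.07%). An androgen response element, written as AGAACA and TGTTC 3 bases apart on either strand, was in none of the 7 and in 16 of all (0.0487%). Absence of these letters from 300 bases says nothing about binding elsewhere.

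Esr1 served as the check of the genotype labels. On the log2 scale of the deposited values it read 7.80, 7.66 and 7.80 on the 3 WT_vehicle arrays and 7.01, 7.09 and 6.88 on the 3 aERKO_vehicle arrays. Every aERKO_vehicle array lay below every WT_vehicle array, with no overlap. The difference was -0.76 ± 0.08 (SE), a 1.69-fold lower level with a 95% confidence interval of -0.93 to -0.59 (limma adjusted p = 0.00587). The probe set summarises probes along the transcript, and a targeted allele need not remove all that they cover, so what remains does not measure functional receptor. The call ended when WT_vehicle replicate 3 was left out (adjusted p = 0.0502) and held in the other 18 of 19 alternatives.

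**Figure D1:**
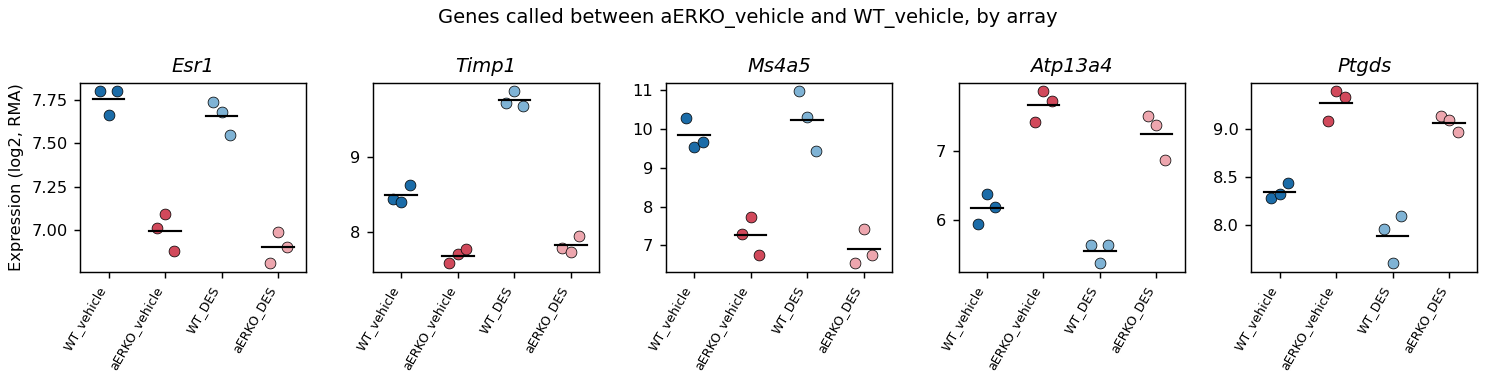
Expression of the 5 called genes on each array (vertical axes: log2 value after RMA, a separate scale for each gene, not starting at 0; points: 3 arrays in each of 4 groups; lines: group means). For each gene the 3 aERKO_vehicle points lie all below or all above the 3 WT_vehicle points, as the lower levels of Esr1, Timp1 and Ms4a5 and the higher levels of Atp13a4 and Ptgds show.

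Timp1 encodes a secreted inhibitor of matrix metalloproteinases, the enzymes that degrade extracellular matrix. It read 8.44, 8.40 and 8.62 in WT_vehicle and 7.59, 7.71 and 7.77 in aERKO_vehicle. The lowest wild-type array lay above the highest knockout array, and the spread within either group was small (SD 0.117 and 0.0873, n = 3 each). The difference was -0.80 ± 0.09 (SE), 1.74-fold lower (limma adjusted p = 0.00587). Like that of Esr1, its call ended when WT_vehicle replicate 3 was left out (adjusted p = 0.0502).

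Ms4a5, a member of the membrane-spanning MS4A family, had the largest difference of all genes tested. It read 10.3, 9.53 and 9.68 in WT_vehicle and 7.28, 7.74 and 6.74 in aERKO_vehicle. The gap between the groups was wide, but so was the spread within them (SD 0.405 and 0.5). The difference was -2.59 ± 0.37 (SE), 6.0-fold lower, with a 95% confidence interval of -3.39 to -1.78 and an adjusted p of 0.0493, just under the threshold in limma. The call ended whichever of the 6 vehicle arrays was left out (differences of -2.83 to -2.33), and it ended without the filter on low values (adjusted p = 0.0749).

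Atp13a4 encodes a P-type ATPase of the cell's membranes. It read 5.95, 6.38 and 6.19 in WT_vehicle, not far above the mean of the background controls (5.25 to 5.34 on those arrays), and 7.41, 7.85 and 7.71 in aERKO_vehicle. Each knockout array exceeded each wild-type array. The difference was 1.48 ± 0.17 (SE), 2.79-fold higher, with a 95% confidence interval of 1.12 to 1.84 (limma adjusted p = 0.00624). Its call ended without WT_vehicle replicate 3, aERKO_vehicle replicate 2 or aERKO_vehicle replicate 3 (adjusted p = 0.0502, 0.0564 and 0.0646), with differences of 1.49, 1.38 and 1.45.

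Ptgds encodes prostaglandin D synthase, which makes prostaglandin D and as a secreted lipocalin also binds lipophilic molecules. It read 8.28, 8.32 and 8.43 in WT_vehicle and 9.08, 9.39 and 9.33 in aERKO_vehicle. The groups stood apart, with the 3 wild-type arrays close together (SD 0.0802). The difference was 0.92 ± 0.12 (SE), 1.90-fold higher (limma adjusted p = 0.0190). The call held without aERKO_vehicle replicate 1 and ended without any 1 of the other 5 vehicle arrays, where the adjusted p lay between 0.0597 and 0.174. With the array number as a replicate block the adjusted p was 0.0549.

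The 6 arrays of mice given DES carry the same genotype contrast and share no array with the vehicle groups, although limma estimated the spread from all 12. All 5 genes were called there too, in the same direction, among 10483 genes (52.1%) called between aERKO_DES and WT_DES. Esr1 differed by -0.76 there, as between the vehicle groups. Timp1 differed by -1.92, more than given vehicle, and the difference between the contrasts itself passed limma's test (1.12, adjusted p = 2.98e-05). That difference came with WT_DES values of 9.71, 9.87 and 9.68, above those of WT_vehicle, while aERKO_DES read 7.79, 7.74 and 7.95. Ms4a5 differed by -3.34, Atp13a4 by 1.68 and Ptgds by 1.18. For those 3 genes and Esr1 the difference between the contrasts did not pass (adjusted p = 0.299, 0.549, 0.258 and 0.992), which does not show that the contrasts were equal. Within the knockout no gene was called between aERKO_DES and aERKO_vehicle by limma, with 264 at an unadjusted p below 0.05.

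**Figure D2:**
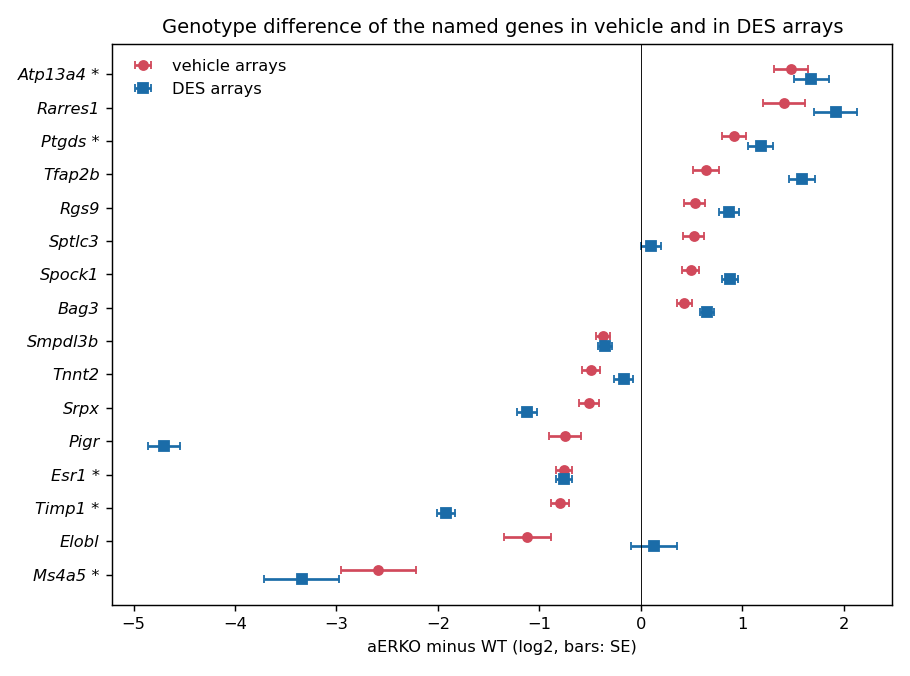
Genotype difference of the 16 genes named by rank (horizontal axis: aERKO minus WT, log2; circles: vehicle arrays, squares: DES arrays, 3 per group; bars: SE; asterisks: called given vehicle). The DES contrast lay farther from 0 for Timp1 (-1.92 against -0.80) and Pigr (-4.70 against -0.75), equal for Esr1 (-0.76 in both), and near 0 for Elobl (0.13 against -1.12).

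Beyond the 5 calls the measured values differed little between the genotypes. The median difference over all 20102 genes was 0.00, and the middle 50% of genes lay between -0.05 and 0.05. The median SE was 0.09. For 20017 genes (99.6%) the 95% interval of the difference lay within 1 log2 unit of 0, and for 19479 (96.9%) within 0.58, which is about 1.5-fold. The genes tested include some that passed the filter only through the WT_DES arrays, such as S100a8 and Ms4a1. Those lay below the background controls in both vehicle groups, and for them a difference near 0 shows only a lack of signal. A total of 864 genes (4.3%) had an unadjusted p below 0.05, 432 higher and 432 lower. That count ranged from 510 (without WT_vehicle replicate 1) to 1078 (without aERKO_vehicle replicate 2) when 1 vehicle array was left out, with 550 without aERKO_vehicle replicate 3, and was 1463 with only the 6 vehicle arrays fitted. The 2 groups of 3 arrays did not overlap for 2444 genes (12.2%), of which 1291 were higher and 1153 lower in aERKO_vehicle. With 3 arrays a group, array number sets the precision of all these values.

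**Figure D3:**
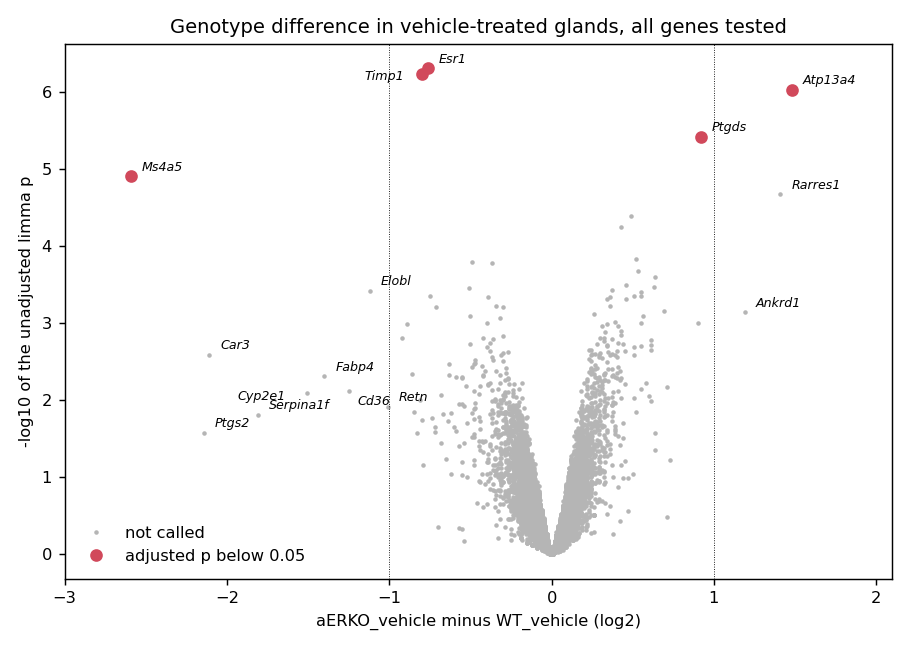
Genotype difference (horizontal axis: aERKO_vehicle minus WT_vehicle, log2) and strength of evidence (vertical axis: -log10 of the unadjusted limma p) for the 20102 genes tested. The 5 called genes are large and coloured, dotted lines mark a difference of 1 on the log2 scale, and 10 of the 12 genes beyond them were not called.

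Among the genes that did not pass, the smallest p on the higher side belonged to Rarres1, a membrane protein gene induced by retinoids. Rarres1 read 6.42, 6.82 and 7.16 in WT_vehicle and 8.19, 8.46 and 7.99 in aERKO_vehicle. The groups did not overlap, and the difference was 1.41 ± 0.21 (SE, adjusted p = 0.0706). Rarres1 was called when limma used a trend and robust moderation (adjusted p = 0.0487), with array weights (0.00974) and after shifting to the hybridization controls (7.58e-07). That shift gave 14 calls in all and left 271 genes at an unadjusted p below 0.05, against 864 without it. Between the DES groups the difference of Rarres1 was 1.92 (adjusted p = 1.65e-05). Next by p were Spock1, a matrix proteoglycan gene (0.49, adjusted p = 0.116), and Bag3, a co-chaperone gene (0.43, adjusted p = 0.144). Spock1 was called with only the 6 vehicle arrays (adjusted p = 0.0497), with both aERKO groups together against WT_vehicle (0.0461), with quantile normalization (0.0341) and with array weights (0.00331). They were followed by Sptlc3, a subunit of the enzyme that starts sphingolipid synthesis (0.52), Rgs9, a regulator of G protein signalling (0.53), and the transcription factor gene Tfap2b (0.64). Between the DES groups, where 52.1% of all genes tested were called, Sptlc3 differed by 0.10 and was not called (limma adjusted p = 0.383). The others of these 6 genes were called higher there. Tfap2b was called with only the 6 vehicle arrays (adjusted p = 0.0497), and with array weights Bag3, Sptlc3, Rgs9 and Tfap2b were all called (0.0303, 0.0303, 0.0402 and 0.0194). Array weights gave 80 calls in all, and the estimation of the weights stopped before its tolerance. The wild-type and knockout arrays did not overlap for any of these 6 genes. That adds no support, because the genes were chosen for their small p on the same arrays. Of all genes tested 12.2% did not overlap.

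On the lower side the genes nearest to a call were Tnnt2, which encodes a troponin of striated muscle (-0.49, adjusted p = 0.303), and Smpdl3b, a phosphodiesterase-like gene (-0.37, adjusted p = 0.303). Smpdl3b read 7.93, 8.11 and 8.0 in WT_vehicle against 7.66, 7.55 and 7.74 in aERKO_vehicle, and its difference between the DES groups was -0.35 (adjusted p = 0.00143). Srpx (-0.51), Elobl (-1.12) and Pigr (-0.75), which encodes the receptor that carries polymeric antibodies across epithelium, had an adjusted p of 0.37. Pigr read 8.0, 7.44 and 7.60 in WT_vehicle and 6.85, 7.08 and 6.86 in aERKO_vehicle, so that the groups were separate. Elobl read 7.54, 7.4 and 7.64 in WT_vehicle and 6.62, 6.61 and 5.98 in aERKO_vehicle, but was near 6.3 in both DES groups (means of 6.24 and 6.38). Between the DES groups 52.1% of all genes tested were called. Srpx and Pigr were also called lower there, while Elobl and Tnnt2 were not called (Tnnt2 -0.17, limma adjusted p = 0.124). With array weights Tnnt2, Smpdl3b, Elobl and Pigr were called (adjusted p = 0.0146, 0.0259, 0.0259 and 0.0303), and Srpx was not. Those weights gave 80 calls in all, and their estimation stopped before its tolerance.

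The 864 genes with an unadjusted p below 0.05 were followed on the DES arrays. Of these, 671 (77.7%) had the same sign there, against 12128 (60.3%) of all genes tested, and 496 (57.4%) were called with the same sign, against 6726 (33.5%) of all. Opposite and called were 77 (8.91%), against 3753 (18.7%) of all. These shares are a description, because genes are not independent of each other.

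Size and evidence came apart for the genes with the largest differences. Chosen after their values were seen, 12 genes differed by at least 1 on the log2 scale, 3 higher and 9 lower. Of these Atp13a4 and Ms4a5 were called and 10 were not. WT_vehicle replicate 1 was the highest of the 6 vehicle arrays for 7 of the 8 lower genes that were not called, namely Car3, Cd36, Cyp2e1, Fabp4, Ptgs2, Retn and Serpina1f. Without that array, 9 genes in all differed by at least 1, 4 higher and 5 lower. Without WT_vehicle replicate 2, the lowest of the 3 for all 7 of these genes, the count was 24, with 21 lower. After shifting arrays to the hybridization controls Ankrd1, Car3, Cd36, Cyp2e1, Elobl, Fabp4 and Rarres1 of the 10 were called. That shift gave 14 calls in all.

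Car3, a carbonic anhydrase gene abundant in fat and muscle, shows the pattern. It read 11.22, 8.30 and 9.38 in WT_vehicle and 7.47, 8.37 and 6.74 in aERKO_vehicle. WT_vehicle replicate 1 stood almost 2 log2 units above any other vehicle array and replicate 2 lay within the knockout range. The difference was -2.11 ± 0.56 (SE, adjusted p = 0.604), or -1.31 without WT_vehicle replicate 1. Ptgs2, the inducible cyclooxygenase gene, read 10.53, 7.30 and 8.26 in WT_vehicle and 6.58, 6.56 and 6.54 in aERKO_vehicle. Its groups did not overlap (-2.14 ± 0.85, adjusted p = 1.0; -1.22 without WT_vehicle replicate 1), while on the DES arrays of the knockout it read 6.65, 6.52 and 9.93. Serpina1f, a serpin gene, read 9.38, 6.95 and 7.56 in WT_vehicle and 6.13, 5.97 and 6.36 in aERKO_vehicle (-1.81 ± 0.64, adjusted p = 0.921, and -1.10 without WT_vehicle replicate 1). On the DES arrays of the knockout Serpina1f read 6.13, 6.18 and 8.51, and it was not called between the DES groups (limma adjusted p = 0.0989). Ankrd1, a stretch-responsive muscle gene, was the only 1 of the 10 uncalled genes besides Rarres1 on the higher side, with 7.77, 7.61 and 7.56 against 8.99, 9.22 and 8.31 (1.19 ± 0.27, adjusted p = 0.449).

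The adipocyte list held 13 genes, of which 10 were tested and none called. All 10 differences were negative, from -1.40 (Fabp4) to -0.24 (Lipe), with a median of -0.60 against 0.00 over all genes. Of the 10, 9 had an unadjusted p below 0.05, against 4.3% of all genes tested. Fabp4, the fatty acid binding protein of fat cells, read 9.04, 6.68 and 7.70 in WT_vehicle and 6.23, 6.69 and 6.30 in aERKO_vehicle, so the groups overlapped at WT_vehicle replicate 2. Adipoq, the gene of the fat hormone adiponectin, read 7.62, 6.14 and 6.49 against 6.01, 6.19 and 5.83. Cidec, a lipid droplet gene, did not overlap (8.26, 6.94 and 7.42 against 6.72, 6.86 and 6.47), with a difference of -0.86 ± 0.25 (SE, adjusted p = 0.738). The mean over the 10 genes was 8.12, 6.93 and 7.35 on the 3 WT_vehicle arrays and 6.72 to 6.91 on the aERKO_vehicle arrays. It was 7.52 to 7.63 in WT_DES and 6.67 to 6.87 in aERKO_DES. Without WT_vehicle replicate 1 the list median was -0.29, with 5 genes at an unadjusted p below 0.05. With any 1 of the other 5 vehicle arrays left out it lay between -0.84 and -0.57. Such a p was found for 4 genes without aERKO_vehicle replicate 3 and 6 without aERKO_vehicle replicate 1 or 2. It was found for 8 without WT_vehicle replicate 3 and 10 without WT_vehicle replicate 2. In bulk tissue, fewer cells of a type and less RNA per cell cannot be told apart.

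**Figure D4:**
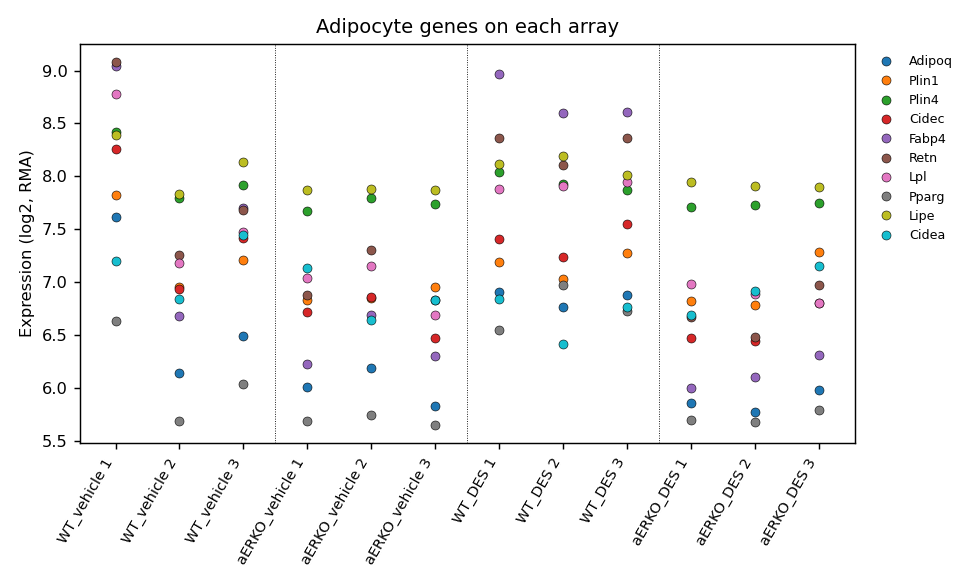
The 10 tested adipocyte genes on each of the 12 arrays (vertical axis: log2 value after RMA; points: 1 gene on 1 array; dotted lines separate the groups). WT_vehicle replicate 1 carries the highest value of any vehicle array for 9 of the genes (Fabp4 9.04, against 6.68 and 7.70 on the other 2 wild-type arrays), and Cidea is highest on WT_vehicle replicate 3 (7.45).

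WT_vehicle replicate 1 also stood apart for some secretory genes of the prostate and coagulating gland, which adjoin the seminal vesicle. The mean of the 12 tested genes of that list was 10.47 on it, 9.44 and 9.60 on the other WT_vehicle arrays and 9.36 to 9.76 in aERKO_vehicle. Msmb, which encodes a major secreted protein of the prostate, read 12.66 on it and 7.25 and 8.28 on the other 2, against 7.52, 9.53 and 9.50 in aERKO_vehicle. Defb50, a beta-defensin gene, read 12.56 on it, 9.44 and 10.16 on the other 2, and 9.23 to 10.75 in aERKO_vehicle. Other members differed little among the WT_vehicle arrays, such as Tgm4 (13.65, 13.55 and 13.51), Gsdma (11.55, 11.39 and 11.33) and Crym (7.29, 7.26 and 7.16). The list median was -0.24, or -0.03 without WT_vehicle replicate 1 and -0.10 without aERKO_vehicle replicate 1. With any 1 of the remaining vehicle arrays left out it lay between -0.34 and -0.20. Limma called no member, with 2 of the 12 at an unadjusted p below 0.05, against 4.3% of all genes tested. Fgl1, a secreted fibrinogen-like protein gene, was close on the 3 wild-type arrays: it read 10.3, 10.04 and 9.98 in WT_vehicle and 9.37, 9.58 and 8.96 in aERKO_vehicle (-0.81 ± 0.27, adjusted p = 0.886). Bmp15, placed on the list although it is better known as a growth factor of the oocyte, had -0.38 (adjusted p = 0.604). The part of fat or of neighbouring gland in the differences of WT_vehicle replicate 1 was not tested.

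Over all 32 gene lists, 488 different genes were tested and 1 was called, Esr1 itself. A total of 51 of them (10.5%) had an unadjusted p below 0.05, against 4.3% of all genes, on lists chosen with earlier results of these data known. Of those 51, 9 are on the adipocyte list. Without WT_vehicle replicate 1 the count was 29 of 488 (5.94%), against 2.54% of all genes. The list medians lay between -0.60 (adipocyte) and 0.10 (smooth muscle), and for 30 lists within 0.15 of 0.

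None of the 17 tested genes on the list of seminal vesicle secretory proteins was called or had an unadjusted p below 0.05. The list had array means of 12.31 to 12.39 in WT_vehicle and 12.33 to 12.40 in aERKO_vehicle. Members such as Svs5 (14.09 to 14.15 in WT_vehicle) lay near the highest value of any array (14.5), and others, such as Sbpl (6.33 to 7.42), far below it. Whether changes are compressed near that value was not tested. Differences ranged from -0.33 (Sbpl) to 0.12 (Spinkl). Svs2, a main protein of the copulatory plug, read 13.34, 13.43 and 13.41 in WT_vehicle and 13.43, 13.55 and 13.44 in aERKO_vehicle (0.08 ± 0.08, SE). Pate4 differed by 0.10 and Svs4 by 0.06, each with an interval that includes 0 (-0.04 to 0.24 and -0.07 to 0.19).

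**Figure D5:**
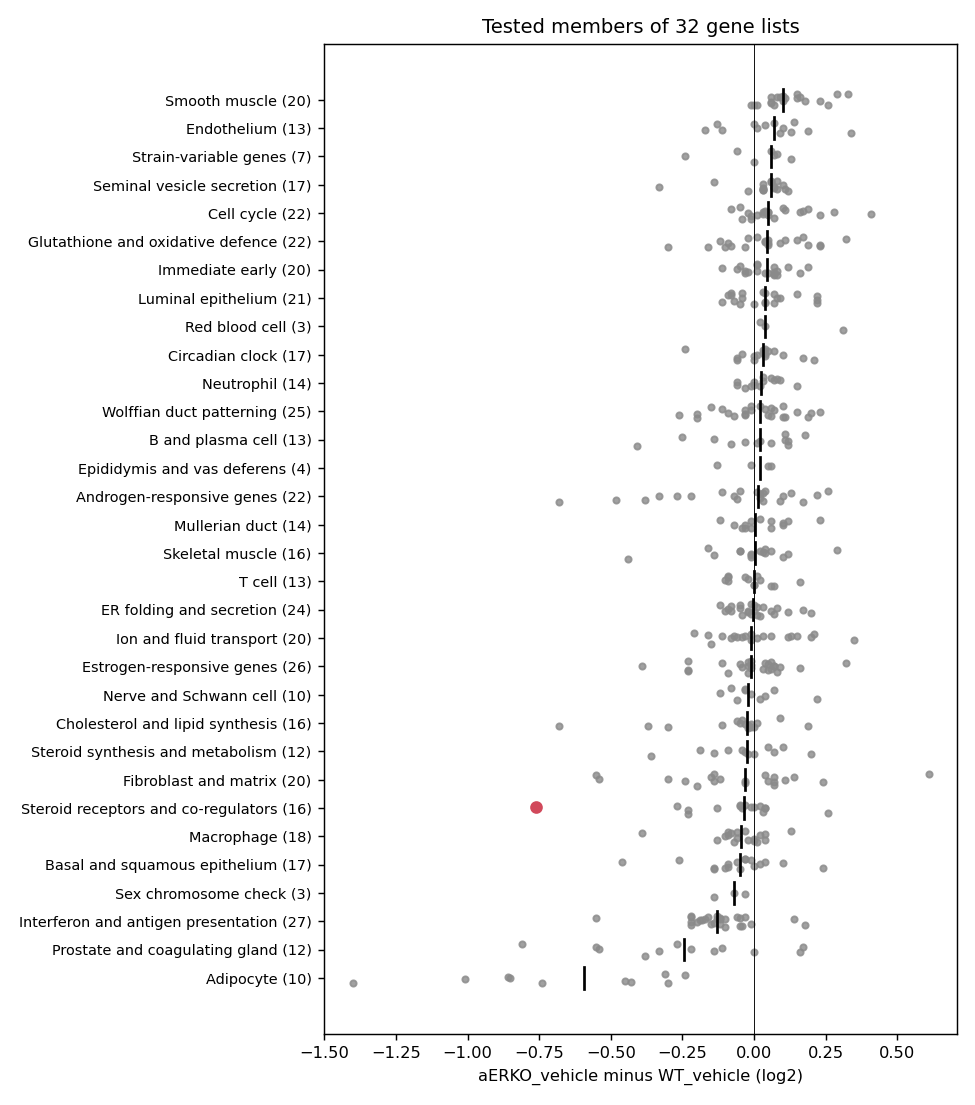
Genotype differences of the tested members of 32 gene lists (horizontal axis: aERKO_vehicle minus WT_vehicle, log2; points: genes, with the number tested in brackets; bars: list medians; the large coloured point: Esr1, the only called member). Lists are ordered by median, from 0.10 for smooth muscle to -0.60 for adipocytes, and 30 of the 32 medians lie within 0.15 of 0.

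Among 16 tested steroid receptors and co-regulators, Esr1 was the only gene called. Esr2, which encodes estrogen receptor beta, read 6.60, 6.59 and 6.59 in WT_vehicle and 6.57, 6.51 and 6.60 in aERKO_vehicle, a difference of -0.03 with an interval of -0.19 to 0.12. The orphan receptor gene Esrrg differed by -0.27 (unadjusted p = 0.00519, adjusted p = 0.739) and the mineralocorticoid receptor gene Nr3c2 by -0.23 (adjusted p = 0.914), without overlap for either. Gata2, a zinc finger transcription factor gene, differed by 0.26 (adjusted p = 1.0). Gper1 and Cyp19a1 had no probe set with 1 symbol here and were not analysed here.

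Of 26 tested estrogen-responsive genes limma called none, and 5 had an unadjusted p below 0.05, against 4.3% of all genes tested. That count was 1 without WT_vehicle replicate 1, 2 without aERKO_vehicle replicate 1, 4 without aERKO_vehicle replicate 3 and 3 without any 1 of the other 3 vehicle arrays. With 1 vehicle array left out the share over all genes lay between 2.54% (without WT_vehicle replicate 1) and 5.36% (without aERKO_vehicle replicate 2). Ltf, the lactoferrin gene and a classical target in the uterus, read 6.38, 6.27 and 6.36 in WT_vehicle and 6.38, 6.17 and 6.44 in aERKO_vehicle, a difference of -0.01 ± 0.20 (SE). Those values lie little above the background controls (means of 5.25 to 5.42 on the vehicle arrays), and WT_DES read 11.64 to 12.4. Pgr, the progesterone receptor gene, read 6.33, 6.23 and 6.31 against 6.18, 6.06 and 5.94 (-0.23 ± 0.10, adjusted p = 1.0). Igfbp4 (-0.23) and Gadd45g (0.32) had no overlap between the groups, with an adjusted p of 0.965 and 0.914. Greb1 differed by 0.04 ± 0.09.

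Androgen-responsive genes gave 0 calls by limma of 22 tested, with a median of 0.01. An unadjusted p below 0.05 was found for 4, against 4.3% of all genes tested. That count was 3 without WT_vehicle replicate 1, aERKO_vehicle replicate 1 or aERKO_vehicle replicate 3, and 4 without any other vehicle array. Scd1, among these 4, read 11.85, 10.27 and 10.88 in WT_vehicle and 10.23, 10.63 and 10.10 in aERKO_vehicle (-0.68 ± 0.29). Tmprss2, a membrane protease gene, read 9.96, 9.80 and 9.79 in WT_vehicle and 9.36, 9.49 and 9.25 in aERKO_vehicle (-0.48 ± 0.13, adjusted p = 0.684). Fkbp5, a co-chaperone of steroid receptors, differed by 0.22 and Hpgd, which inactivates prostaglandins, by 0.26, so that the members with an unadjusted p below 0.05 lay on both sides of 0. Of 12 genes of steroid synthesis and metabolism none had an unadjusted p below 0.05. Slc9a3, the sodium and proton exchanger that acidifies the fluid of the male tract, had the smallest p of 20 ion and fluid transport genes: 6.56, 6.48 and 6.48 against 6.86, 6.74 and 6.96 (0.35 ± 0.09, unadjusted p = 0.00238, adjusted p = 0.604). Aqp1, a water channel gene, differed by 0.13 with an interval of -0.04 to 0.30.

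Of the cell type markers, 20 smooth muscle genes had a median of 0.10, 18 of them above 0. Limma called none, and 3 had an unadjusted p below 0.05, against 4.3% of all genes tested. The median ranged from 0.05 (without aERKO_vehicle replicate 2) to 0.18 (without aERKO_vehicle replicate 1) when 1 vehicle array was left out, and was 0.15 without WT_vehicle replicate 3. Des, the muscle filament gene, read 10.73, 10.80 and 10.76 against 10.97, 11.26 and 11.04 (0.33 ± 0.11, adjusted p = 0.869). Array means of that list were 10.06 to 10.18 in WT_vehicle and 10.14 to 10.38 in aERKO_vehicle and overlapped. Among 20 fibroblast and matrix genes the members differed both ways, with Fn1, the fibronectin gene, at 0.61 and Lum and Dpt, which encode matrix proteins that bind collagen, at -0.55 and -0.54 (adjusted p = 0.895 for Fn1). Plvap, a gene of fenestrated endothelium, differed by 0.34 (8.05, 7.98 and 8.09 against 8.26, 8.47 and 8.41; adjusted p = 0.489).

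The immune lists overlapped between the vehicle groups, and limma called none of their genes. Some members passed the filter only through the WT_DES arrays and lay below the background controls (5.25 to 5.42) in both vehicle groups. S100a8 read 3.55 to 3.73 in WT_vehicle, 3.52 to 3.90 in aERKO_vehicle and 10.17 to 10.74 in WT_DES, and Ms4a1 4.60 to 4.79, 4.48 to 4.67 and 7.39 to 7.64. For such genes overlap shows only a lack of signal. Others, such as C1qb (8.52 to 8.81 and 8.54 to 8.63 in the vehicle groups), lay well above. Array means of 18 macrophage genes were 7.32 to 7.53 in WT_vehicle and 7.35 to 7.37 in aERKO_vehicle, and those of 14 neutrophil genes 5.86 to 5.89 and 5.75 to 6.03. For 13 B and plasma cell genes they were 7.02 to 7.10 and 6.93 to 7.11, and for 13 T cell genes 6.24 to 6.42 and 6.27 to 6.35. The 27 interferon and antigen presentation genes had a median of -0.13 with 25 below 0 and none with an unadjusted p below 0.05. For 7 of them the 2 groups did not overlap and aERKO_vehicle was lower, and for 1 it was higher. Over all 20102 genes tested the groups did not overlap for 12.2%, with 1153 genes lower and 1291 higher. The median of the 27 genes was -0.07 without WT_vehicle replicate 3, which had the highest array mean (7.87, against 7.56 and 7.62). With any 1 of the other vehicle arrays left out it lay between -0.17 and -0.11. The array means of the 27 genes, 7.56 to 7.87 and 7.53 to 7.58, overlapped. Luminal epithelial genes (21 tested, array means of 9.63 in all 3 WT_vehicle arrays and 9.59 to 9.70 in aERKO_vehicle) and 17 basal and squamous genes (7.38 to 7.46 and 7.28 to 7.43) overlapped as well. Among 22 cell cycle genes the median was 0.05, and WT_vehicle replicate 1 had the lowest array mean (6.80, against 7.09 to 7.27 on the other 2 and 7.08 to 7.21 in aERKO_vehicle). The median was -0.04 without that array, 0.14 without WT_vehicle replicate 2, 0.09 without aERKO_vehicle replicate 2 and 0.01 without aERKO_vehicle replicate 3, so it had no steady sign.

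Genes that pattern the ducts of the embryonic tract gave no call by limma among 25 Wolffian and 14 Müllerian members. An unadjusted p below 0.05 was found for 2 and 1 of them, against 4.3% of all genes tested. Pax2, a transcription factor gene on both lists, read 8.37, 8.31 and 8.33 in WT_vehicle and 8.51, 8.52 and 8.66 in aERKO_vehicle (0.23 ± 0.06, adjusted p = 0.63). Genes next to Esr1 on chromosome 10 were examined because a targeted allele can carry flanking sequence. Of the 10 nearest tested genes on each side, 0 of 20 were called. Mthfd1l, a mitochondrial folate enzyme gene, was the only 1 of them with an unadjusted limma p below 0.05, at a difference of 0.17. Differences ranged from -0.16 (Vip) to 0.17, with a median of -0.01, and Syne1, the nearest gene on 1 side, differed by -0.08. Among the 896 other tested genes of the chromosome none was called and 45 (5.02%) had an unadjusted p below 0.05.

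Across the series, pairs of arrays correlated at 0.994 to 0.996 over genes within WT_vehicle, 0.992 to 0.995 within aERKO_vehicle and 0.990 to 0.995 between them, so that pairs across genotype were nearly as alike as pairs within it. The WT_DES arrays stood apart, at 0.868 to 0.919 with the vehicle arrays. They enter the spread of the fit, the DES contrast and the difference between the contrasts. They also count in the filter on low values, and so in which genes were tested and adjusted for. The choice among several probe sets of a gene used them as well. Xist lay under the filter on all vehicle arrays (5.16 to 5.29) and the Y-linked gene Uty read 8.12 to 8.47, as the male labels imply.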

How the data were processed

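Total RNA of 12 seminal vesicle samples, 300 ng each, was amplified, labelled with biotin and hybridized to Affymetrix arrays, per the labels' protocols. The authors deposited log2 values for each probe set. Per the submitters' processing notes they used RMA and Affymetrix Expression Console, with version, settings and build not given in the sources used here. RMA subtracts background, gives all arrays one distribution and summarises probes, so a broad change shared by most genes would be removed.

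Of 72688 probe sets (186 of them array controls), 30604 had exactly 1 symbol in the platform annotation, 2146 had several and 39938 none. 1135 symbols were updated through the RefSeq gene table (GRCm38.p6). Of the 30063 genes, 429 had several probe sets and took the one with the highest mean over 12 arrays. The filter removed 9961 genes. Groups and replicate numbers come from the sample titles. R 4.3.3 and limma 3.58.1 (lmFit and eBayes, a mean per group over all 12 arrays, 8 residual and 4.33 prior degrees of freedom, two-sided) gave differences, SEs and p-values adjusted by Benjamini-Hochberg over all genes tested. The steps were tested on simulated data.

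The comparison, the gene lists and the alternatives were chosen with earlier results of these data known. Named genes are all those called, then those with the smallest p up to 8 in each direction, the member of each list with the smallest p, and fixed genes. Antigen receptor segments, small RNA genes and genes with only a provisional name were left out. Others named by list membership or size were chosen after their values were seen. The alternatives changed the filter, probe sets, moderation, arrays used, array weights, scaling, a replicate block and the threshold. Promoter sequences are those of RefSeq.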

Additional observations from a re-analysis of the deposited data

Results flagged for a closer look

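For 26 of the 62 genes named in the account or taken from its lists and fixed genes, the genotype difference given vehicle differed from that given DES by limma's interaction test (adjusted p below 0.05), as it did for 4679 of the 20102 genes tested. The values below are the vehicle difference minus the DES difference on the log2 scale. The test rests in part on the WT_DES arrays, which stand apart from the other 9. Among the genes ranked by p given vehicle it was 1.12 for Timp1, -0.39 for Spock1, 0.41 for Sptlc3, -0.95 for Tfap2b, 0.61 for Srpx, -1.26 for Elobl and 3.95 for Pigr. Among hormone receptors, hormone targets and gland genes it was -0.42 for Esr2, 0.59 for Pgr, 5.66 for Ltf, -0.34 for Svs2, 0.57 for Aqp1, -0.95 for Bmp15 and -0.41 for Pax2. Among markers of cell types it was -0.46 for Des, 0.76 for Plvap, 3.85 for Lyz2, 3.49 for Ighm, 0.32 for Cd28, 0.65 for Pmp22, -0.94 for Bpgm, 0.32 for Prom1 and 2.41 for Krt15. For the cell cycle gene Rrm2 it was 0.67, for the glutathione transferase gene Gsta4 1.51 and for the inflammatory caspase gene Casp4 3.21. The 2 contrasts had opposite signs for Aqp1, Bmp15, Cd28, Elobl, Esr2, Gsta4, Plvap, Pmp22, Prom1 and Rrm2, none of them called given vehicle. For example, Gsta4 had 0.32 given vehicle and -1.20 given DES (limma adjusted p = 0.738 and 5.82e-07).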

How the results depend on the processing

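The 5 calls became 8 when only the 6 vehicle arrays were fitted, 80 with array weights (46 higher and 34 lower; the estimation of the weights stopped before its tolerance), 14 after shifting arrays to the hybridization controls, 3 after shifting to the 75th percentile, and 225 at an unadjusted p below 0.01. Leaving out 1 vehicle array gave 0 to 4 calls: 0 without WT_vehicle replicate 3, 2 without aERKO_vehicle replicate 2 or 3, 3 without WT_vehicle replicate 1 or 2, and 4 without aERKO_vehicle replicate 1. No filter gave 4 and a stricter one, which kept 17170 genes, gave 5. The median scaling gave 4 and quantile normalization 6. With the array number as a replicate block there were 4 calls, without Ptgds, and deviations of same-numbered arrays correlated at 0.086, 0.074 and -0.004, so the numbers were not read as pairs. Over 19 alternatives Esr1 and Timp1 were called in 18, Atp13a4 in 16, Ptgds in 11 and Ms4a5 in 9, and no difference changed sign. The number of these 5 genes whose contrasts differed between vehicle and DES was 1, or 2 with array weights. That alternative, like the others, was chosen with earlier results of these data known. List genes other than Esr1 gave 0 calls, 1 with array weights (Slc9a3) and 1 with the hybridization controls (Fabp4). The causes of these shifts were not tested. Depth has no counterpart on arrays, and the low signal of Atp13a4 and Ltf over the background controls limits their folds.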
